A study of Mus musculus with 72 samples.

Results

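The membrane and cytosolic fractions of mouse embryonic stem cells were compared after 60 min of labeling with 4-thiouridine (4sU), to ask for which genes the membrane-bound mRNA is older, or no older, than the cytosolic mRNA of the same gene. The comparison used 8 of the 72 libraries of the series, 1 cytosolic and 1 membrane library from each of replicates 3, 4, 5 and 6. Of 29301 genes with T counts, 9852 had at least 2000 T counts in exons in all 8 libraries and were tested. All 8 libraries came from unmodified E14TG2a cells, an established mouse embryonic stem cell line, grown in serum medium with LIF and the inhibitors CHIR99021 and PD0325901, so that no group carried an allele or treatment that the other lacked. The cells of a replicate were opened with digitonin, which released the cytosolic fraction, and the washed pellet was then extracted with the detergent NP-40, which released the membrane fraction and left the nuclei, with cycloheximide present during the extraction. Each library was made from poly(A)-selected RNA. The labels give 100 µM 4sU for all libraries of 60 and 120 min and 500 µM for those of 15, 20, 30 and 40 min, which are used below for comparison. The study's methods also describe 500 µM for 60 min and for longer labeling. Samples of more than 60 min at that dose were excluded from the study's own analysis because gene expression had changed. Which replicates these doses concern was not taken from the labels.

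4sU is a uridine analog that is built into RNA made while it is present. Once alkylated, it is sequenced as C, and such T-to-C (T2C) conversions mark RNA made during labeling. An mRNA that encodes a secreted or membrane protein is recognised during translation, when a hydrophobic stretch of the growing protein leaves the ribosome, is bound by the signal recognition particle and is brought to the translocon of the endoplasmic reticulum (ER). Tail-anchored proteins carry their only hydrophobic stretch at the end and are inserted after translation is complete, and mRNAs of the mitochondrial genome are made inside the mitochondrion, an organelle that is extracted with the membranes.

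The mRNAs compared below differ in where such a stretch lies, and a few coding sequences are shown to make this visible. The reading frames were taken from the GENCODE M21 annotation of GRCm38, and a segment was called where 19 codons in a row had a mean Kyte-Doolittle hydropathy of at least 1.6. The first 120 coding bases are printed 5′ to 3′, with the 19 codons of highest mean hydropathy in capitals where they reached that limit. The first 5 genes lagged in the membrane at 60 min and the next 2 did not. They are examples, since 456 of 845 lagging genes with a complete reading frame (54.0%) had their first segment start within the first 40 residues. Other lagging genes named below, among them Canx, Fn1 and Uggt1, had no segment within their first 120 coding bases.
Atp6ap1: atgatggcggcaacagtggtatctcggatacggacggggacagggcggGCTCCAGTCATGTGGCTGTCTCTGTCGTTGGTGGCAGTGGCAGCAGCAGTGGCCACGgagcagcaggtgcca
Ncln: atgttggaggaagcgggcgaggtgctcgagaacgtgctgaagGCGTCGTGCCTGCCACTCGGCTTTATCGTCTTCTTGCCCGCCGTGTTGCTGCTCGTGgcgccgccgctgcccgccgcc
P3h1: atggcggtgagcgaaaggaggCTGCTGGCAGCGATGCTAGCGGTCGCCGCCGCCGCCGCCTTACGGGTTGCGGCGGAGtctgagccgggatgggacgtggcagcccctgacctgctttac
Calr: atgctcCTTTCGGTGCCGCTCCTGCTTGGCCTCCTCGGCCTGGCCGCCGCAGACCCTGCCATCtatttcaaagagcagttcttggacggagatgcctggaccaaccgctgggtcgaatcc
Spp1: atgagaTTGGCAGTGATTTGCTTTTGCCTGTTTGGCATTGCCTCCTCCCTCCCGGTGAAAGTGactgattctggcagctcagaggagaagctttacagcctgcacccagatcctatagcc
Hmgcs1: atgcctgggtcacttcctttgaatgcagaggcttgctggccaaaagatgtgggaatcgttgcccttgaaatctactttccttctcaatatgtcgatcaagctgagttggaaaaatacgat
Eef1a1: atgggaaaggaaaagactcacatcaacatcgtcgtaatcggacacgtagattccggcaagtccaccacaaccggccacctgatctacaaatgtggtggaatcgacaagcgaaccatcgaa
The capitals cover codons 17 to 35 in Atp6ap1, 15 to 33 in Ncln, 8 to 26 in P3h1 and 3 to 21 in Calr and Spp1. Hmgcs1 and Eef1a1 had no such segment in the whole reading frame. Atp6ap1 lies at chrX:74297097-74304721, plus strand, Ncln at chr10:81486249-81496392, minus strand, P3h1 at chr4:119232915-119248975, plus strand, Calr at chr8:84841850-84846934, minus strand, Spp1 at chr5:104435118-104441050, plus strand, Hmgcs1 at chr13:119690379-119708260, plus strand and Eef1a1 at chr9:78478449-78489151, minus strand. For the tail-anchored protein Vamp3, a vesicle fusion protein encoded at chr4:151047300-151057963, minus strand, the last 120 coding bases are shown instead, since its only segment lies there, at codons 84 to 102 of 103.
Vamp3: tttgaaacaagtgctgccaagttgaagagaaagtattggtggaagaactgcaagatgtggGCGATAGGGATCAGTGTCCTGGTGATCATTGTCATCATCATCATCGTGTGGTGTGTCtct

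The 8 libraries held 19925675 to 27123264 reads on genes. Exonic T2C counts summed to between 3771741 and 9373814 per library in replicates 3 and 4 and to between 2468311 and 3228140 in replicates 5 and 6. The deposited conversion rate was 5.83% to 8.09% in replicates 3 and 4 and 2.38% to 2.82% in replicates 5 and 6, and in every replicate it was higher in the membrane library than in the cytosolic one. The replicate pairs also differed in the share of T counts in introns, which in the cytosol was 3.40% to 3.66% in replicates 3 and 4 and 8.93% to 9.24% in replicates 5 and 6. The labels give 1 dose for the 8 libraries and name no batch, and the part of these differences in the ratios was not tested. The cells held their defining markers, since all 7 embryonic stem cell markers passed the T minimum and their summed level was 7261 to 7831 CPM (gene counts scaled to a common library total) in the cytosol and 6985 to 7573 CPM in the membrane. Summed levels were 2.60 to 7.53 CPM for 6 primitive endoderm markers, 0.221 to 15.5 CPM for 5 fibroblast markers, 4.38 to 10.4 CPM for 5 trophoblast markers and 49.1 to 101 CPM for 5 neural markers. The fibroblast marker Col1a2 was at 0 in all 4 cytosolic libraries, and Col3a1 and Postn were at 0 in all 4 membrane libraries.

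The share of new RNA of a gene is the ratio of its T2C to T counts divided by the conversion rate of the library, so that 0 stands for no new RNA and 1 for all RNA new, and values slightly over 1 can occur. Over all 9852 genes, the median share in the cytosol was 0.0869, 0.0862, 0.194 and 0.172 in replicates 3, 4, 5 and 6, and in the membrane 0.0964, 0.0888, 0.153 and 0.133. The membrane was thus slightly ahead of the cytosol in replicates 3 and 4 and behind it in replicates 5 and 6. The median over genes of the log2 ratio of the shares, membrane over cytosol, was 0.15, 0.10, −0.21 and −0.23 in these replicates, with a mean of −0.05 ± 0.20 (SD, n = 4). Whether it differed from 0 could not be decided (exact sign-flip permutation test, two-sided, p = 0.75), since 4 pairs allow no p under 0.125. The replicate pairs 3-4 and 5-6 lay on opposite sides of 0. The calls described next were made against a log2 ratio of 0, and an alternative took ratios relative to the median gene of each replicate.

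Membrane RNA lagged behind cytosolic RNA for 876 of the 9852 genes (8.89%), by edgeR's quasi-likelihood test with an adjusted p under 0.05 and a log2 ratio of −0.5 or lower. It led for 203 genes (2.06%), with a log2 ratio of 0.5 or higher. A further 248 genes (2.52%) were called equal, since the 90% interval of their log2 ratio lay within 0.25 of 0 on both sides. This call needs a narrow interval, and the median over genes of the mean T count was 171854 for equal genes and 29631 for all genes. The remaining 8525 genes had no call, which does not show that their shares were alike. The sign was the same in all 4 replicates for 843 of the lagging and 193 of the leading genes. Of the lagging and leading genes together 81.2% lagged. This split was 71.3% when ratios were taken relative to the median gene of each replicate. With 1 conversion rate per replicate for both fractions it was 62.3%. That rate moved the median of all genes by 0.16 on the log2 scale, so that small ratios below 0 could turn positive. In replicates 3 and 4 fitted alone, 613 genes lagged and 554 led, a split of 52.5%. In replicates 5 and 6 alone, 1984 lagged and 120 led, a split of 94.3%. The count of leading genes was 108 without replicate 3 and 70 without replicate 4. The equal genes were 120, 80, 56 and 107 without replicates 3, 4, 5 and 6, and with 1 rate per replicate 154 genes were equal, of which 8 were among the 248.

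**Figure D1:**
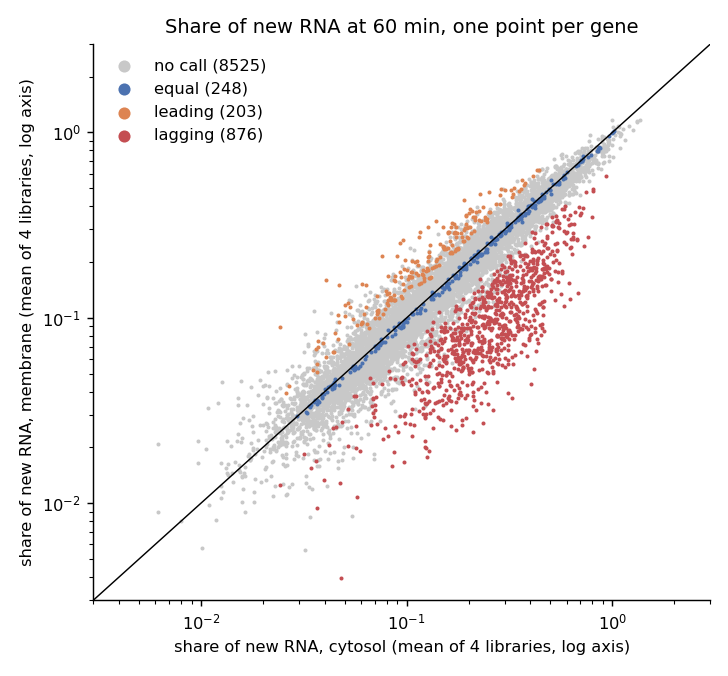
Mean share of new RNA over 4 replicates in the cytosol (x axis, log scale) and in the membrane (y axis, log scale), 1 point per gene, with lagging, leading and equal genes colored. The 876 lagging genes lie below the diagonal, with a median share of 0.260 in the cytosol and 0.0902 in the membrane, and the 203 leading genes lie above it.

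Most tested genes of the 8 lists compiled for proteins that enter the ER lagged. Solute carriers, glycosyltransferases and Tmem proteins were listed by symbol, without a check that each protein enters the ER. The 8 lists held 287 tested genes, 90 of them Tmem genes, and of the 287, 187 (65.2%) lagged, 1 led and 0 were equal. Their median log2 ratio was −1.10, against −0.03 over all genes. Of the 9565 genes in none of these lists 689 (7.20%) lagged, with a median of −0.03. The lists were compiled with earlier results of these data known, and many genes of secreted and membrane proteins are in no list.

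**Figure D2:**
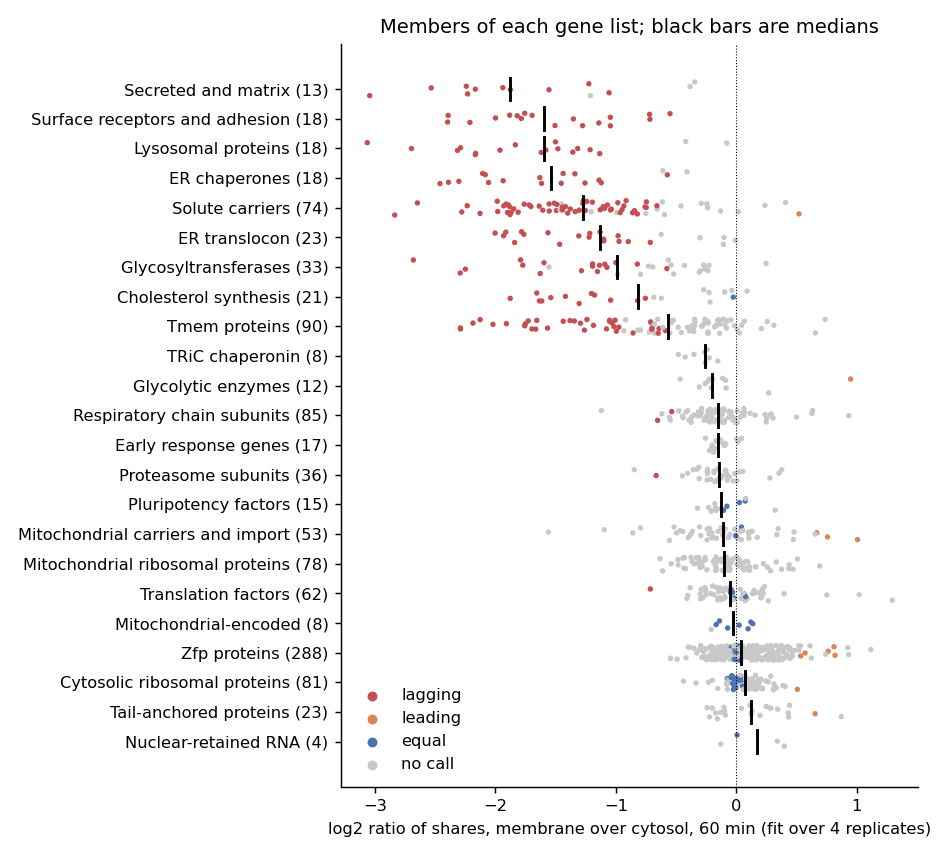
Log2 ratio of the share of new RNA, membrane over cytosol, for the tested members of each gene list, with 1 point per gene and the median of each list marked. The lists of ER chaperones, translocon, secreted, surface and lysosomal proteins and solute carriers have medians between −1.88 and −1.13, and the lists of cytosolic and mitochondrial proteins have medians close to 0.

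Among the ER chaperones and folding enzymes, 16 of 18 tested genes lagged and 0 led, with a median log2 ratio of −1.54. Canx encodes calnexin, a membrane-bound chaperone of glycoproteins. Its share was 0.276, 0.236, 0.346 and 0.298 in the cytosol and 0.0655, 0.0529, 0.0782 and 0.0723 in the membrane of replicates 3 to 6. Every membrane value was below every cytosolic value, and the log2 ratio was −2.11 (SE 0.10, adjusted p = 1.07e-12). Calr encodes the soluble relative calreticulin, and its share was 0.180, 0.181, 0.263 and 0.275 in the cytosol and 0.0827, 0.0877, 0.125 and 0.116 in the membrane. The groups again did not overlap, but the log2 ratio of −1.12 (SE 0.09, adjusted p = 5.84e-09) was smaller in size than that of Canx. Erp44 and Sdf2l1 were the 2 members without a call, at −0.61 (SE 0.22) and −0.41 (SE 0.29).

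Of 23 genes of the translocon and its partners, 18 lagged and 0 led, with a median of −1.13. Ssr3 and Ssr2 encode subunits of the translocon-associated protein complex. The share of Ssr3 was 0.128, 0.143, 0.25 and 0.245 in the cytosol and 0.0615, 0.0585, 0.0988 and 0.0842 in the membrane, a log2 ratio of −1.31 (SE 0.11, adjusted p = 6.64e-09). For Ssr2 the log2 ratio was −0.46 and −0.59 in replicates 3 and 4 and −1.37 and −1.52 in replicates 5 and 6, so that all 4 values were below 0 but the pairs of replicates lay apart. The fitted value was −0.98 (SE 0.15, adjusted p = 3.3e-05). The 5 members with no call were Sec11c, Sec61b, Sec61g, Spcs1 and Tram1, 4 of which encode small subunits of the translocon or of signal peptidase.

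Of 20 secreted and matrix proteins, 7 were under the T minimum, 10 of the 13 tested lagged and the median was −1.88. Spp1 encodes osteopontin, a secreted phosphoprotein, and its share was 0.341, 0.304, 0.386 and 0.354 in the cytosol and 0.0818, 0.0751, 0.112 and 0.0961 in the membrane. All cytosolic values were over 0.3 and all membrane values were under 0.12, with a log2 ratio of −1.94 (SE 0.10, adjusted p = 1.42e-11). Fn1, fibronectin, had a share of 0.0946, 0.0812, 0.205 and 0.201 in the cytosol and of 0.0273, 0.0294, 0.0302 and 0.0268 in the membrane. Its membrane share hardly varied, while its cytosolic share was higher in replicates 5 and 6, and the log2 ratio was −2.24 (SE 0.20, adjusted p = 1.33e-08).

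All 18 tested genes of surface receptors and adhesion proteins lagged, with a median of −1.6, and 8 of the 26 on the list were under the T minimum. Tfrc encodes the transferrin receptor, which takes up iron. Its share was 0.381, 0.336, 0.561 and 0.591 in the cytosol and 0.127, 0.103, 0.139 and 0.126 in the membrane. The cytosolic values were the higher in each replicate by a factor of 3.68 in the fit (log2 ratio −1.88, SE 0.12, adjusted p = 7.38e-11). Cd9, a tetraspanin of the plasma membrane, had a share of 0.139, 0.105, 0.280 and 0.223 in the cytosol and 0.0453, 0.0510, 0.0866 and 0.0693 in the membrane, and a log2 ratio of −1.51 (SE 0.14, adjusted p = 4.21e-08). For Cdh1, which encodes E-cadherin, the log2 ratio was −0.42, −1.02, −1.38 and −1.66 in replicates 3 to 6, and the fitted value was −1.14 (SE 0.15, adjusted p = 4.93e-06).

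Lysosomal proteins, which pass through the ER on their way, lagged in 16 of 18 tested genes of 22 on the list, with a median of −1.6. Ctsd, the protease cathepsin D, had a share of 0.209, 0.319, 0.402 and 0.303 in the cytosol and of 0.0761, 0.0747, 0.0833 and 0.0799 in the membrane. The membrane values were nearly constant, and the log2 ratio was −1.96 (SE 0.14, adjusted p = 5.78e-10). Lamp1, a glycoprotein of the lysosomal membrane, had a log2 ratio of −1.36 (SE 0.13, adjusted p = 2.65e-08).

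Of 295 solute carrier genes outside the mitochondrial carrier family, 74 were tested, and 57 of these lagged and 1, Slc22a14, led. The median was −1.27. Slc2a3 encodes a glucose transporter with a share of 0.201, 0.260, 0.486 and 0.431 in the cytosol and 0.0813, 0.0727, 0.108 and 0.0953 in the membrane. The groups did not overlap, and the log2 ratio was −1.88 (SE 0.12, adjusted p = 8.8e-11). The amino acid transporter gene Slc38a4 had a log2 ratio of −1.98 (SE 0.13, adjusted p = 8.8e-11).

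Calls were fewer among enzymes and membrane proteins of mixed location. Of 33 tested glycosyltransferase genes of 63, 17 lagged, with a median of −0.99, and of 90 tested Tmem genes of 226, 35 lagged, with a median of −0.57. Tmem131 had a log2 ratio of −2.02 (SE 0.14, adjusted p = 2.59e-10) and Tmem59 of −1.29 (SE 0.16, adjusted p = 1.35e-06). For Galnt2, which starts mucin-type glycosylation in the Golgi, the log2 ratio was −0.20, −1.62, −2.49 and −2.28 in replicates 3 to 6, all below 0 with a wide spread, and the fitted value was −1.77 (SE 0.27, adjusted p = 2.46e-05). Galnt1 had a log2 ratio of −1.07 (SE 0.17, adjusted p = 3.96e-05). That some lists were called less often than others was not tested. With limma, 8 secreted and matrix, 17 surface, 13 lysosomal, 53 solute carrier, 14 glycosyltransferase and 29 Tmem genes lagged. The ER chaperones and the translocon list kept 16 and 18. DESeq2 called 9 secreted and matrix and 18 glycosyltransferase genes, and as many as edgeR in the other ER lists.

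**Figure D3:**
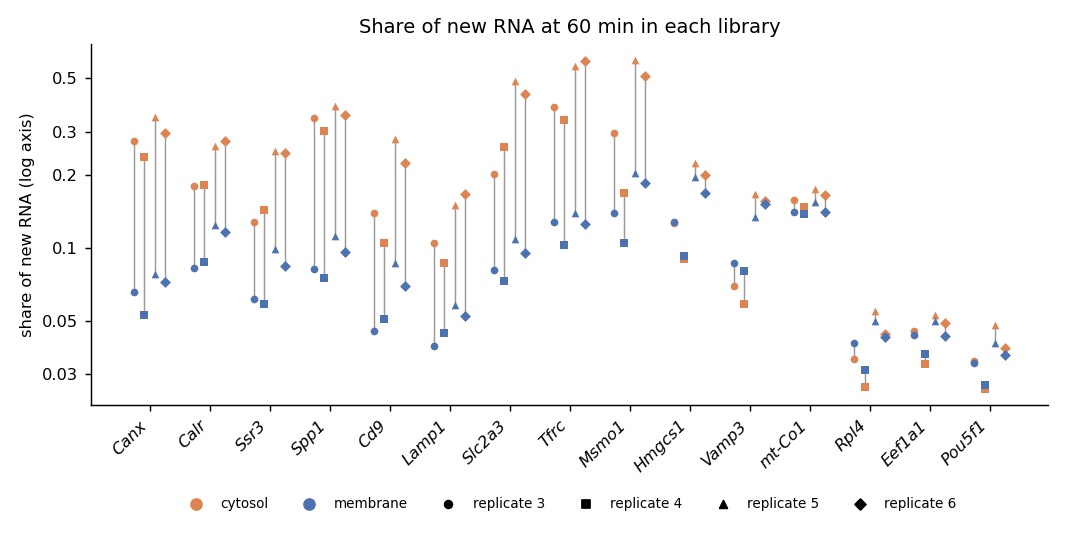
Share of new RNA (y axis, log scale) in each cytosolic and membrane library of replicates 3 to 6 for genes described in the text. For Canx, Spp1 and Tfrc all 4 membrane values lie below all 4 cytosolic values, and for Eef1a1 and mt-Co1 the values of both fractions overlap.

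Within cholesterol synthesis, 12 of 21 genes lagged, 0 led and 1, Idi1, was equal, with a median of −0.82. The lagging genes included the sterol enzymes Sqle, Cyp51, Msmo1, Hsd17b7, Ebp, Sc5d and Dhcr7 and the regulators Insig1, Scap and Srebf2, all of which encode proteins of the ER membrane. The genes with no call were Hmgcs1, Mvk, Pmvk, Mvd, Fdps, Fdft1, Lss and Nsdhl, the first 5 of which encode soluble enzymes. The share of Msmo1 was 0.297, 0.168, 0.593 and 0.509 in the cytosol and 0.139, 0.105, 0.203 and 0.185 in the membrane, and its log2 ratio was −1.20 (SE 0.12, adjusted p = 1.2e-07). The share of Hmgcs1, whose coding start is shown above, was 0.126, 0.0900, 0.224 and 0.200 in the cytosol and 0.128, 0.0923, 0.195 and 0.168 in the membrane. The ranges of both fractions overlapped, and the log2 ratio of −0.10 (SE 0.10, adjusted p = 0.653) was 0.06 with 1 conversion rate per replicate.

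The list of tail-anchored proteins held 23 genes found in the files. All were tested and 0 lagged, a count close to what the 8.89% of all genes would give in so short a list, also with limma and DESeq2, and none was lower at an unadjusted p under 0.05 (0 genes). One, Stx16, led, and the median was 0.12. Vamp3 had a share of 0.0692, 0.0586, 0.167 and 0.156 in the cytosol and 0.0861, 0.0804, 0.134 and 0.151 in the membrane. The membrane was higher in replicates 3 and 4 and lower in 5 and 6, with a log2 ratio of 0.11 (SE 0.15, adjusted p = 0.771). Vapa, an ER membrane protein that binds lipid transfer proteins, had a log2 ratio of −0.09 (SE 0.12, adjusted p = 0.754). The median membrane enrichment of the list, the ratio of CPM in the membrane to CPM in the cytosol, was 0.584, against 0.679 over all genes.

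The mRNAs of the mitochondrial genome were the most membrane-enriched list, and most of those tested were called equal, at high depth. Of 13 protein-coding genes, 5 (mt-Co2, mt-Atp8, mt-Atp6, mt-Co3 and mt-Nd6) were listed at 0 T counts in at least 1 library and 8 were tested, of which 7 were equal, with 0 lagging and 0 leading in edgeR, limma and DESeq2. At an unadjusted p under 0.05, 3 were lower and 2 higher. The median membrane enrichment of the list was 100.02 and its median log2 ratio was −0.02, and it was 0.13 with 1 conversion rate per replicate. mt-Co1, a subunit of cytochrome oxidase, had a share of 0.157, 0.147, 0.175 and 0.165 in the cytosol and of 0.141, 0.138, 0.154 and 0.140 in the membrane. The membrane value was the lower in each replicate, by a log2 ratio of −0.17 (SE 0.04, adjusted p = 0.00445), which is past the test and still within the limits for an equal gene, and it was −0.01 (adjusted p = 0.949) with 1 conversion rate per replicate. mt-Nd1, a subunit of complex I, had a log2 ratio of −0.14 (SE 0.04, adjusted p = 0.0172), and 0.02 with 1 conversion rate per replicate. The 2 mitochondrial ribosomal RNAs lagged with a median log2 ratio of −0.51, at the edge of the limit, and both lost this call relative to the median gene.

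Few genes of nuclear-encoded mitochondrial proteins were called. Of 78 mitochondrial ribosomal protein genes 0 lagged, 0 led and 0 were equal, with no call in limma or DESeq2, while 9 were lower and 1 higher at an unadjusted p under 0.05. Their median was −0.10, and 0.06 with 1 conversion rate per replicate. Of 85 tested respiratory chain genes 2 lagged, Cox4i1 and Cox7c, and of 53 tested genes of mitochondrial carriers and import factors 0 lagged and 3 led, namely Slc25a36, Slc25a37 and Timm9. In limma 1 gene of the carrier and import list lagged. Slc25a5, an ADP/ATP carrier, had a share of 0.0523, 0.0445, 0.0785 and 0.0787 in the cytosol and 0.0437, 0.0378, 0.0572 and 0.0527 in the membrane. The membrane was lower in each replicate, with a log2 ratio of −0.38 (SE 0.10, adjusted p = 0.0135) that did not reach the size needed for a call.

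Proteins made and kept in the cytosol or the nucleus had ratios near 0. Of 81 tested cytosolic ribosomal protein genes, 20 were equal (24.7%, against 2.52% of all genes), 0 lagged and 1, Rpl12, led, with a median of 0.08. Their median T count was 679898, against 29631 over all genes, and the part of depth in the equal calls of the lists was not tested. Of 62 translation factor genes, 7 were equal and 1, Eif4g1, lagged, and of 36 proteasome genes 1, Psmc4, lagged. Of 288 tested genes of Zfp proteins, mostly zinc finger factors, 18 were equal, 5 led and 0 lagged. For the 8 genes of the TRiC chaperonin, which folds cytosolic proteins, 0 were called, yet 7 were lower at an unadjusted p under 0.05 and the median was −0.26, or −0.10 with 1 conversion rate per replicate. Of 12 glycolytic genes, 0 lagged and 1, Pfkp, led. Of 7 nuclear-retained RNAs 4 were tested and 1, Malat1, was equal, with a log2 ratio of 0.01 (SE 0.10), and the median of the 4 was 0.17.

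Eef1a1, the elongation factor that brings tRNA to the ribosome, showed the equal pattern at high depth. Its share was 0.0454, 0.0332, 0.0527 and 0.0489 in the cytosol and 0.0437, 0.0363, 0.05 and 0.0433 in the membrane. The ranges of both fractions overlapped almost completely, with a log2 ratio of −0.05 (SE 0.06, adjusted p = 0.763), and 0.11 with 1 conversion rate per replicate. Genes of pluripotency factors and of the early response had more new RNA. All 15 pluripotency genes were tested, with 4 equal (Esrrb, Pou5f1, Sox2 and Zfp42), 0 lagging or leading in edgeR, limma and DESeq2, 3 lower and 1 higher at an unadjusted p under 0.05, and a median of −0.13, or 0.03 with 1 conversion rate per replicate. Of 26 early response genes 17 were tested, with 0 called, 1 lower at an unadjusted p under 0.05 and a median of −0.15, or 0.01 with 1 conversion rate per replicate. Their median share was 0.753 in the cytosol and 0.702 in the membrane, so that most of their RNA was new in both fractions. For Myc, a short-lived transcription factor mRNA, the share was 0.621, 0.542, 0.982 and 0.686 in the cytosol and 0.636, 0.529, 0.911 and 0.855 in the membrane, and the log2 ratio was 0.04 with a wide SE of 0.23 (adjusted p = 0.953).

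Membrane enrichment is relative within each library, since CPM do not hold the amount of RNA in a fraction. It was taken from the libraries of other labeling times, so that no library of 60 min entered it. Of 923 genes with an enrichment of 3 or more, 721 (78.1%) lagged, with a median log2 ratio of −1.25. Of 334 genes between 1.5 and 3, 86 (25.7%) lagged, with a median of −0.48, and of 8173 genes under 1.5, 44 (0.538%) lagged, with a median of 0.01. The remaining 422 genes had too few counts for an enrichment, and 25 of them lagged. Across genes, then, those enriched in the membrane fraction had the lower ratios. Genes at 3 or more had a median share of 0.251 in the cytosol and 0.0922 in the membrane. Genes under 1.5 had 0.125 in the cytosol and 0.125 in the membrane. Taken from the 60 min libraries themselves, the enrichment was 3 or more for 967 genes, of which 746 lagged. The membrane-enriched genes that were equal were 6 mitochondrial genes and Gm29216, which resembles a mitochondrial gene and may share reads with it. Grik3, a glutamate receptor subunit, was the only gene of this class that led, at a log2 ratio of 0.52 (SE 0.10, adjusted p = 0.000605).

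**Figure D4:**
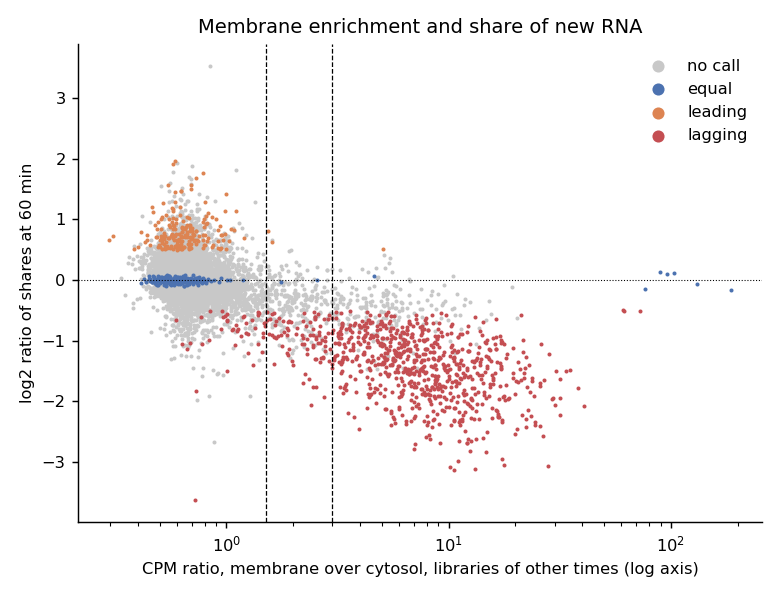
Log2 ratio of the share of new RNA at 60 min, membrane over cytosol (y axis), against the membrane enrichment in libraries of other labeling times (x axis, log scale), 1 point per gene, with the limits of 1.5 and 3 marked. Of the 923 genes at 3 or more, 721 lag, and the mitochondrial genes stand at the right near a ratio of 0.

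The presence, position and number of hydrophobic segments all went with the call, and their parts were not separated. Of the 9111 genes with a complete reading frame, 814 had their first segment start within the first 40 residues, and 456 of these (56.0%) lagged, with a median log2 ratio of −0.91. With the first segment further in, 261 of 1306 genes lagged (20.0%), with a median of −0.13. Of 226 genes whose single segment lay in the last 60 residues 32 (14.2%) lagged, with a median of −0.09, and of 6765 genes without any segment 96 (1.42%) lagged, with a median of 0.01. The share of lagging genes was 20.4% with 1 segment, 39.5% with 2 to 4 and 72.9% with 5 or more. Seen from the calls, 749 of 845 lagging genes (88.6%) had a segment, against 16 of 188 leading genes (8.51%), 17 of 228 equal genes (7.46%) and 1564 of 7850 genes with no call (19.9%). Lagging genes without one included Colgalt1, Tpp1, Calu, Ero1l and Fn1, whose proteins are known to enter the ER, so that the limit of 1.6 misses some signal peptides. Of the lagging genes, 663 had both a segment and an enrichment of 3 or more, and 22 had a complete reading frame with no segment and an enrichment under 1.5.

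The strongest lags included genes of the ER, the lysosome and the matrix. Among the 10 lowest ratios with the same sign in all 4 replicates were Atp6ap1, an accessory subunit of the vacuolar proton pump, and Ncln, nicalin, a protein of the ER membrane, whose coding starts are shown above. Atp6ap1 had a share of 0.357, 0.219, 0.584 and 0.449 in the cytosol and 0.0340, 0.0365, 0.0556 and 0.0501 in the membrane, so that the cytosolic RNA was newer by a factor of 8.75 in the fit (log2 ratio −3.13, SE 0.22, adjusted p = 5.39e-10). Ncln had a share of 0.246, 0.211, 0.195 and 0.186 in the cytosol and 0.0263, 0.0255, 0.0264 and 0.0184 in the membrane, with a log2 ratio of −3.12 (SE 0.27, adjusted p = 7.08e-09). In both genes the lowest cytosolic value was over 3 times the highest membrane value. The others were Snx14 (−3.08), the saposin precursor gene Psap (−3.06), the basement membrane gene Nid2 (−3.04), the glycoprotein folding sensor Uggt1 (−2.98), the collagen hydroxylase P3h1 (−2.95), the amino acid transporter Slc7a3 (−2.84) and the collagen galactosyltransferase Colgalt1 (−2.81). In Psap the log2 ratio was −1.83 in replicate 3 and −3.04 to −3.59 in the others. Capsl had the lowest fitted value of all, −3.63, but only 1, 1, 0 and 1 T2C counts in the membrane against 16, 37, 1 and 7 in the cytosol, and its call was lost without replicate 4 (adjusted p = 0.173), in replicates 5 and 6 alone (adjusted p = 0.170) and with DESeq2 (adjusted p = 0.0569).

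The lag had a side in each fraction. The median share of the 876 lagging genes was 0.260 in the cytosol, above the 0.136 of all genes, and 0.0902 in the membrane, below their 0.119. These shares chose the genes and are given as a description. In single libraries, the cytosolic median of the lagging genes was 0.177, 0.180, 0.356 and 0.306 and the nuclear one, from libraries not used for the calls, was 0.264, 0.189, 0.237 and 0.200 in replicates 3 to 6. The cytosolic median was thus below the nuclear one in replicate 3, slightly below it in replicate 4 and above it in replicates 5 and 6. The nuclear library of replicate 3 had 29.4% of its T counts in introns, against 14.7% to 15.2% in the others. In replicates 5 and 6 the conversion rate was 2.38% and 2.58% in the cytosol and 3.25% and 3.53% in the nucleus. The part of these differences in the contrast was not tested. Introns moved with the calls, too. A median of 12.3% of the T counts of lagging genes in the cytosol lay in introns, against 2.62% in the membrane, whereas over all genes it was 5.24% and 5.89%. Among genes with an enrichment of 3 or more, 95 of 154 lagged where the intronic percentage in the cytosol was under 5 (median −0.79), 451 of 559 where it was 5 to 20 (−1.26) and 175 of 210 where it was 20 or more (−1.44). Exon shares alone entered the ratio, and the part of unspliced or nuclear RNA in the lag was not tested beyond these values.

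The 203 leading genes were less uniform. Their median share was 0.126 in the cytosol and 0.202 in the membrane, and their median log2 ratio was 0.74. Their median span in the genome was 41.7 kb, against 22.7 kb over all genes, and 15.0% of their T counts in the membrane lay in introns, against 7.89% in the cytosol. Of the 1137 genes with 20% or more intronic T counts in the membrane 60 led and 17 lagged, and of the 4403 genes under 5%, 22 led and 648 lagged. The part of nuclear RNA in the membrane fraction in these calls was not tested. The 5 highest ratios were those of Rimkla (1.96), Lacc1 (1.92), Gm26377 (1.82), Amph (1.68) and the pseudogene Gm15793 (1.66). They rested on few T2C counts, between 2 and 165 per library, and each lost its call under at least 1 alternative. Gm26377 is annotated as a miRNA gene inside Eef1a1 on the same strand, so that its reads cannot be told from those of Eef1a1 and its value is uncertain. Lacc1, an enzyme of purine metabolism, had a share of 0.0446, 0.0255, 0.0560 and 0.0352 in the cytosol and 0.177, 0.0758, 0.192 and 0.198 in the membrane (SE of the log2 ratio 0.47, adjusted p = 0.00563). Its call was lost in replicates 3 and 4 alone (adjusted p = 0.124). Nf1, the tumor suppressor neurofibromin, had a share of 0.0803, 0.0835, 0.271 and 0.264 in the cytosol and 0.261, 0.112, 0.398 and 0.229 in the membrane. The membrane was higher in 3 of 4 replicates, and the log2 ratio of 0.60 (SE 0.25, adjusted p = 0.151) was called only relative to the median gene (adjusted p = 0.0329), in replicates 3 and 4 alone (0.0222) and without replicate 6 (0.0219).

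The 2 pairs of replicates were also fitted apart. Of the 876 lagging genes, 593 were called in replicates 3 and 4, 861 in replicates 5 and 6 and 583 in both, with median log2 ratios of −1.11 and −1.52. Of the 203 leading genes, 180 were called in the first pair, 76 in the second and 60 in both, with medians of 0.97 and 0.48. The test of the difference between the pairs called 414 of 9852 genes (4.2%), 412 of them lower in replicates 5 and 6 and 2 higher. The median of this difference over all genes was −0.36, and relative to the median gene only 8 genes were called, 5 lower and 3 higher. The counts also followed single replicates, with 1470 genes without replicate 3, 1862 without replicate 4, 58 without replicate 5 and 44 without replicate 6, each of which leaves a lone replicate in a pair. With limma, 0 genes were called and 2005 had an unadjusted p under 0.05, against 2197 in edgeR. Birc5, which encodes survivin, had a log2 ratio of 1.24 and 0.73 in replicates 3 and 4 and of −0.53 and −0.51 in replicates 5 and 6, so that its direction turned between the pairs.

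Other labeling times gave the same comparison in libraries that the 60 min calls did not use. Their labels give 500 µM 4sU at 20 min and 100 µM at 120 min. At 20 min, replicates 1 and 2, which have no library at 60 min, called 520 of 10463 genes as lagging (4.97%). Of the genes that lagged at 60 min 874 were tested there, and 314 (35.9%) lagged, with a median log2 ratio of −0.94. For Canx the log2 ratio was −1.84, for Spp1 −3.58, for Tfrc −1.96 and for Slc2a3 −2.91 in these replicates, each past the test, while Ncln (0.35, adjusted p = 0.918) and Uggt1 (−0.01) were not. With all 4 replicates of 20 min, 426 of 9828 genes lagged (4.33%), a count that was 304 to 448 when 1 replicate was left out. At 120 min, in the same replicates 3 to 6, 631 of 9751 genes lagged (6.47%). Of the genes that lagged at 60 min 830 were tested at 120 min and 517 (62.3%) lagged, with a median of −0.66.

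Over the labeling times, the median ratio of these lagging genes relative to that of all genes was −0.54, −1.03, −1.71, −1.40, −1.26 and −0.58 for 15, 20, 30, 40, 60 and 120 min, as means over 2 to 4 replicates. The ER chaperones went from −0.86 at 15 min to −2.54 at 30 min and −0.77 at 120 min. The leading genes had 0.18, 0.43, 0.81, 0.71, 0.77 and 0.31 at these times. Both groups were chosen by their values at 60 min, which are therefore extreme by selection and are not compared with those of other times. Mitochondrial genes stayed between −0.24 and 0.16. Shares were low at 15 min, where the genes lagging at 60 min had medians of 0.0213 and 0.0160 in the cytosol. In the membrane these were 0.0131 and 0.0123. Cytosolic ribosomal protein genes had 0.0143 and 0.0104 in the cytosol and 0.0116 and 0.0104 in the membrane at 15 min. The part of conversions not due to labeling in the ratios of short times was not tested. Different replicates supply different times, and the labels give 500 µM up to 40 min and 100 µM from 60 min. Under this 1 label, the cytosolic conversion rate at 120 min was 8.83% and 11.4% in replicates 3 and 4. In replicates 5 and 6 it was 3.26% and 3.36%. At shorter times the cytosolic rate of replicates 3 and 4 was 2.69% and 3.02% (20 min), 4.09% and 5.21% (40 min) and 5.83% and 7.57% (60 min). In replicates 5 and 6 it was 2.38% and 2.58% at 60 min. The study describes a rate that rose with time at 500 µM and stayed constant at 100 µM. The rate of replicates 3 and 4 rose as described for 500 µM, against their label, and the dose of each library was not settled here. At 500 µM, their 120 min libraries would be among those the study excluded. Time, dose and replicate cannot be told apart, and the differences between times were not tested.

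**Figure D5:**
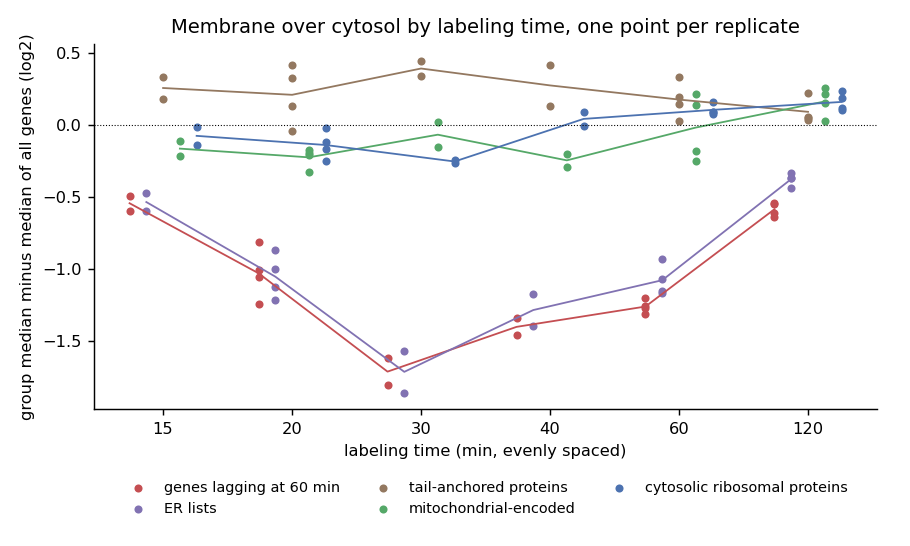
Median log2 ratio of the share of new RNA, membrane over cytosol, relative to the median of all genes (y axis), for groups of genes at 15, 20, 30, 40, 60 and 120 min of labeling (x axis, evenly spaced), with 1 point per replicate and a line through the means. The lagging genes reach −1.71 at 30 min and −0.58 at 120 min, and the mitochondrial genes stay near 0.

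Next to the limit of 2000 T counts, the genes just inside were Phactr2 (2000 T counts in its lowest library, log2 ratio −0.05), Kif21b (2002, 1.01) and Tro (2003, −0.30), and those just outside were 2210408I21Rik (1999, −1.17), Smco4 (1999, 0.06) and Gm18584 (1998, −0.13).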

How the data were processed

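RNA of 4 cytosolic and 4 membrane libraries of 60 min was used, with the libraries of 15, 20, 30, 40 and 120 min, and of the nucleus at 60 min, beside them. The authors aligned strand-specific paired reads with STAR 2.7.6 to mm10 and deposited raw gene counts from HTSeq 0.11.1 (versions per the submitters' processing notes), with raw counts of T positions and T2C conversions in the exons and introns of each gene. The conversion rate of each library is a fraction estimated and deposited by the authors with a binomial mixture model. The ratio deposited by the authors, T2C to T counts over this rate, was recomputed from the counts and differed by at most 8.9e-14.

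T2C counts were tested with edgeR 4.0.16 in R 4.3.3 (quasi-likelihood test, offset of the log of T counts times conversion rate, replicate as a block, Benjamini-Hochberg adjustment over all tested genes). The cytosol and membrane libraries of a number come from the same cells, and their deviations correlated at 0.11 to 0.17 for every number. Unlike numbers within a pair of replicates correlated at 0.06 to 0.10, and numbers of different pairs at −0.18 to −0.05. The correlation thus also went with the pair of replicates. Calls needed an adjusted p under 0.05 and a log2 ratio of at least 0.5 in size, and equality a 90% interval within 0.25. Single-replicate ratios used a pseudocount of 0.5 T2C counts. The labels state independently passaged replicates. The fit was tested on simulated counts of 9852 genes at 60 min, with 100 genes each lowered and raised by 1 on the log2 scale. It recovered 67 and 65, with 9 false calls, and called 212 unchanged and 0 changed genes equal. The simulated libraries held no shift of all genes between the fractions of a replicate, unlike the data. These counts therefore do not cover errors from such a shift. Membrane enrichment is the mean over 14 library pairs of the CPM ratio, with a pseudocount of 0.5, for genes of at least 1 CPM. limma 3.58.1, DESeq2 1.42.0, other T minimums, a subtracted background, a common conversion rate, centring on the median gene, no block, and fewer replicates were alternatives. Python 3.11.15 was used.

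Named genes are the 10 lowest and 5 highest ratios called with the same sign in all replicates, the 5 equal genes with most T counts, 2 genes with most T counts in each of 23 lists, Myc, Nf1 and Tfrc, and the 3 genes with the smallest adjusted p between replicate pairs, some values of which are not reported here. Others were named after their values were seen: the exceptions to a count, and members of a list given by their call. The genes and lists were chosen with earlier results of these data known, and the list medians are not independent evidence. Gm28661, Gm10925 and Gm29216 resemble mitochondrial genes, Gm26377 lies inside Eef1a1, and Gm20388 is a gene model over 90 other genes of its strand, so that their values are uncertain. Protein sequences were not used here.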

Additional observations from a re-analysis of the deposited data

Results flagged for a closer look

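In 3 of 102 sets of 4 replicate values tested for a value far from the others, 1 replicate stood apart, where chance gives about 1 in 20. The log2 ratio of Nid2 was −1.95 in replicate 3 and between −3.45 and −3.28 in the others. That of Colgalt1 was −3.51 in replicate 6 and between −2.61 and −2.57 in the others, and that of Cd9 was −1.05 in replicate 4 and between −1.70 and −1.62 in the others. All 12 of these values were below 0.

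The ratio of membrane to cytosolic share differed between the pairs of replicates, by a test of the difference itself. In edgeR's quasi-likelihood test, 412 genes were lower in replicates 5 and 6 than in replicates 3 and 4, and 2 were higher. Among the genes with the smallest adjusted p were Birc5, with a difference of −1.50 on the log2 scale, and Gm20388, with −0.71. With limma 0 genes were called, and relative to the median gene of each replicate 8 genes were. The conversion rate and the intronic share of the cytosolic libraries go with the same pairs, and their part was not tested.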

How the results depend on the processing

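The 876 lagging genes became 262 with a T minimum of 10000, which tested fewer genes, and 1353 with no T minimum above 1. They became 613 in replicates 3 and 4 alone, 1984 in replicates 5 and 6 alone, and 746 to 1158 when 1 replicate was left out. The 203 leading genes became 130 with background subtracted, 453 with a common conversion rate, 95 with limma, 367 relative to the median gene, 554 in replicates 3 and 4 alone, 120 in replicates 5 and 6 alone, and 70 to 235 with 1 replicate left out. The 248 equal genes became 157 with DESeq2, 94 with background subtracted, 154 with a common conversion rate, 105 with limma, 686 relative to the median gene, 445 in replicates 5 and 6 alone, and 56 to 120 with 1 replicate left out. Without the replicate block, which pairs the 2 fractions of a culture, 490 genes lagged, 2 led and 0 were equal at 60 min, and 306 lagged at 120 min. At 20 min, 249 genes lagged with limma, 174 in replicates 3 and 4 alone and 304 to 448 with 1 replicate left out. At 120 min, 1148 lagged in replicates 5 and 6 alone and 547 to 832 with 1 replicate left out. The 414 genes that differed between pairs of replicates became 124 with a common conversion rate, 0 with limma, 8 relative to the median gene and 44 to 1862 with 1 replicate left out. The mean of the medians over all genes was 0.11 with a common conversion rate. Birc5 reversed to −0.52 in replicates 5 and 6 alone. Apart from the smaller set at the T minimum of 10000, the cause was not tested. Of the other values for named genes, 956 kept their side of the threshold, 36 lost it, 16 gained it and 9 moved. Of the list medians 316 stayed within the replicate spread and 29 moved. Genes with few T2C counts, such as Capsl, Rimkla and Amph, were not measured well enough at this depth to place their ratios.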
